A study of Mus musculus with 6 samples.

Results

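The Clca family was followed in bulk RNA-seq libraries of colon from C57BL/6 mice, 6 h after treatment with an engineered IL-22 variant, wild-type IL-22 or saline. Its members were taken by name, as the gene AI747448 and every gene whose symbol is Clca followed by a digit. The names on that list number 8, but AI747448 is an older name of Clca4b, so they stand for 7 genes of the 35275 in the deposited tables. All 7 passed the filter on low counts and were among the 15628 genes tested. The family was chosen by the level of Clca4b in treated against PBS colon, already known from these libraries, and the other members followed by name. The values of Clca4b against PBS are therefore given as a description, with no test.

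The groups were 22-B3, the variant, at 200 µg per mouse, WT IL-22 at 200 µg per mouse, and PBS, the phosphate-buffered saline control. Each group had 2 libraries, so n = 2 for every mean below. The animals carried no labelled genetic change, and the labels state no sex, age or number of animals and do not say that replicates came from separate mice. A p-value here reflects how far these libraries vary, and some of that variation may be technical. IL-22 is a cytokine of lymphoid cells that acts on epithelial cells and signals mainly through STAT3.

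Clca genes encode calcium-activated chloride channel regulators. The proteins are secreted or shed, cut themselves through a metalloprotease domain, and act on channels rather than forming them. Human CLCA1 acts on the chloride channel ANO1. In mouse intestine Clca1, once called gob-5, is made by goblet cells and is part of the mucus, and Clca4a is known from enterocytes.

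The deposited tables use an older set of symbols, which differ from the current ones in a way that can mislead. The Ensembl gene IDs in the tables were matched to current symbols, and the current symbols are used throughout. The gene listed as Clca3 is Clca1 (ENSMUSG00000028255), the one listed as Clca6 is Clca4a (ENSMUSG00000068547), and AI747448 is Clca4b (ENSMUSG00000074195). The gene listed as Clca4 is Clca3b (ENSMUSG00000037033). The one listed as Clca1 is Clca3a1 (ENSMUSG00000056025), the one listed as Clca2 is Clca3a2 (ENSMUSG00000028262), and the one listed as Clca5 is Clca2 (ENSMUSG00000036960).

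All 7 genes lay in 1 run on the minus strand of chromosome 3 (mm10, coordinates as deposited). From low to high coordinates the order was Clca3a1 at chr3:144729677-144760977, Clca3a2 at chr3:144796559-144819494, Clca3b at chr3:144822623-144849357, Clca4b at chr3:144910921-144932529, Clca4a at chr3:144952480-144975045, Clca1 at chr3:145004537-145032776 and Clca2 at chr3:145070265-145099104. The GENCODE M21 annotation gives each as a protein-coding gene of 14 exons. The smallest gap was 3128 bases, between Clca3a2 and Clca3b, and the widest was 61563 bases, between Clca3b and Clca4b. The pseudogene Clca4c-ps lay inside that widest gap, reached no more than 4 counts, and was not a member.

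The stretch before the start of Clca4b is shown because this gene had the family's largest ratio between its highest and lowest level, and that of Clca3a2 because its neighbour Clca3b shares sequence with it there but differs from it in level. The sequences are from RefSeq on GRCm38.p6, 5′ to 3′ on the minus strand, ending at the base before the start (chr3:144932530-144932779 for Clca4b, chr3:144819495-144819594 for Clca3a2).
Clca4b: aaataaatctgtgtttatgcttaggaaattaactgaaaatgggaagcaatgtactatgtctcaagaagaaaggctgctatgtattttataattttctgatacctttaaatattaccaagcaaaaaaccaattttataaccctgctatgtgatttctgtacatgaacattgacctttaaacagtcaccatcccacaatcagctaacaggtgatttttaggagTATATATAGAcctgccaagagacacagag
Clca3a2: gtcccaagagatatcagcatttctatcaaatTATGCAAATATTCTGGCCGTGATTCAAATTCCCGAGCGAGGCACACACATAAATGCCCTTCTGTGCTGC
In Clca4b the capitals mark 3 overlapping matches of TATANA, the letters of a TATA box, beginning 29, 27 and 25 bases before the start. This motif was looked for on the gene's strand only, in the last 50 bases, after the sequence had been read, and 1444 of 32851 promoter windows (4.4%) held it there. In Clca3a2 the capitals mark a stretch of 69 bases, of which 68 were the same in Clca3b, beginning 69 bases before the RefSeq start of Clca3a2 and 77 before that of Clca3b. The RefSeq start of Clca3b lies 55 bases inside the gene as deposited and as in GENCODE, so 47 bases of the stretch fall within that gene there. The longest identical run in it was 39 bases, against 7 to 9 bases in the other pairs among the 5 members with a window. The windows of Clca1 and Clca4a were not used here. TTCNNNGAA, a palindromic motif of STAT proteins that reads the same on both strands, was searched in the 250 bases before the start. None of the 5 members' windows held it, and 2306 of the 32851 windows (7.02%) did.

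**Figure D1:**
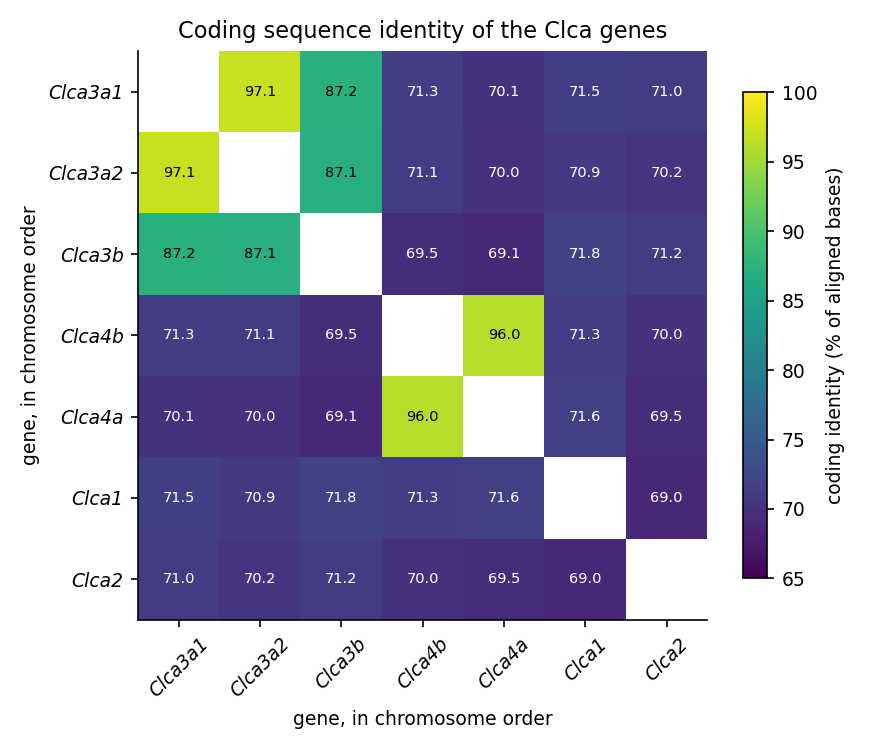
Coding sequence identity between each pair of the 7 Clca genes, in percent of aligned bases, with genes in chromosome order on both axes. Clca3a1 with Clca3a2 (97.08%) and Clca4b with Clca4a (96.04%) stand out, while most other pairs lie near 70%.

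The family held 2 pairs of near-identical genes. Over their coding sequence, Clca3a1 and Clca3a2 were identical at 97.08% of bases and Clca4b and Clca4a at 96.04%. Clca3b was identical to Clca3a1 at 87.17% and to Clca3a2 at 87.13%, and the remaining 17 of 21 pairs lay between 69.02% and 71.82%. The longest identical coding run was 168 bases in Clca4b and Clca4a and 242 bases in Clca3a1 and Clca3a2. Of all 100-base windows of their transcripts, Clca4b shared 5.97% with Clca4a, and Clca3a1 shared 7.62% with Clca3a2. Clca4a shared more with the pseudogene Clca4c-ps, 11.6%, than with Clca4b, 5.96%. Clca1 and Clca2 shared none with any of these genes. The sources used here do not give the read length or the treatment of reads that fit several genes. The split of counts within each near-identical pair, and between Clca4a and the pseudogene, is therefore uncertain.

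Library totals ranged from 17428528 to 22081904 counts. The 2 PBS libraries were unusually alike. Among genes with 20 or more counts in a pair, 59.9% differed beyond the 5% point of a chi-square test in the pair of 22-B3 libraries, 52.3% in that of WT IL-22, and 26.7% in that of PBS. Library 1 of 22-B3 differed at fewer genes from the WT IL-22 libraries (47.6% and 51.1%) than from library 2 of its own group. Library 2 of 22-B3 in turn differed at fewer genes from the PBS libraries (51.5% and 51.8%) than from library 1. Results against PBS are therefore followed with the PBS libraries summed into 1, and each library is left out in turn. The 8 tested markers of stratified squamous epithelium summed to 8.35 and 61.7 CPM (library-scaled counts) with 22-B3, 12.5 and 11.7 CPM with WT IL-22, and 9.03 and 13.3 CPM with PBS, so library 2 of 22-B3 stood apart in them. Of the 8, 1 was at 0 in library 1 of each group. In bulk tissue, fewer cells of a type and less RNA per cell cannot be told apart.

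**Figure D2:**
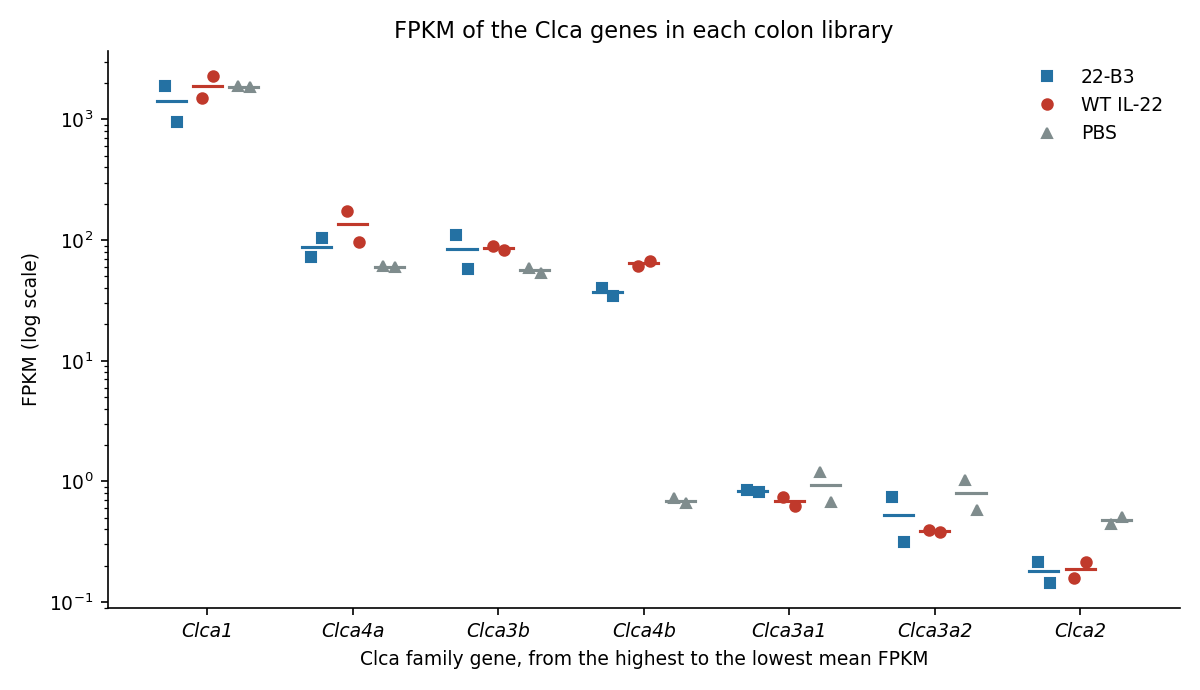
FPKM of each Clca gene in each of the 6 libraries on a log scale, with squares for 22-B3, circles for WT IL-22, triangles for PBS and a bar at each group mean. Clca1 lies highest in every library, and Clca4b is the gene whose treated and PBS libraries lie far apart, at 34.5 to 67.5 against 0.659 and 0.725.

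Clca1, the goblet cell member, was the most abundant in every library. Compared per length, in FPKM (counts scaled by gene length and library total), its level was 1899 and 958 with 22-B3, 1502 and 2290 in the WT IL-22 libraries, and 1888 and 1855 with PBS. It gave 81.3% to 93.7% of the family's counts, and the whole family took 0.343% to 0.750% of all counts. By mean FPKM over the 6 libraries the order below Clca1 was Clca4a, Clca3b, Clca4b, Clca3a1, Clca3a2 and Clca2. Clca4a and Clca3b overlapped over the libraries, at 60.0 to 175 FPKM and 53.4 to 111 FPKM. Clca3a1 and Clca3a2 overlapped as well, at 0.620 to 1.20 FPKM and 0.317 to 1.02 FPKM. Clca2 lay at 0.145 to 0.508 FPKM, also overlapping Clca3a2.

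Clca4b changed its place in that order between groups. Its level was 40.2 and 34.5 FPKM with 22-B3, 60.7 and 67.5 FPKM with WT IL-22, and 0.725 and 0.659 FPKM with PBS. Every treated library lay above both PBS libraries, and both 22-B3 libraries lay below both WT IL-22 libraries. In PBS colon the level of Clca4b was close to those of the low members, and in treated colon it neared those of Clca4a and Clca3b. The ratio of Clca4b to Clca4a in FPKM was 0.553 and 0.331 with 22-B3, 0.347 and 0.696 in the WT IL-22 libraries, and 0.0120 and 0.0110 with PBS.

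**Figure D3:**
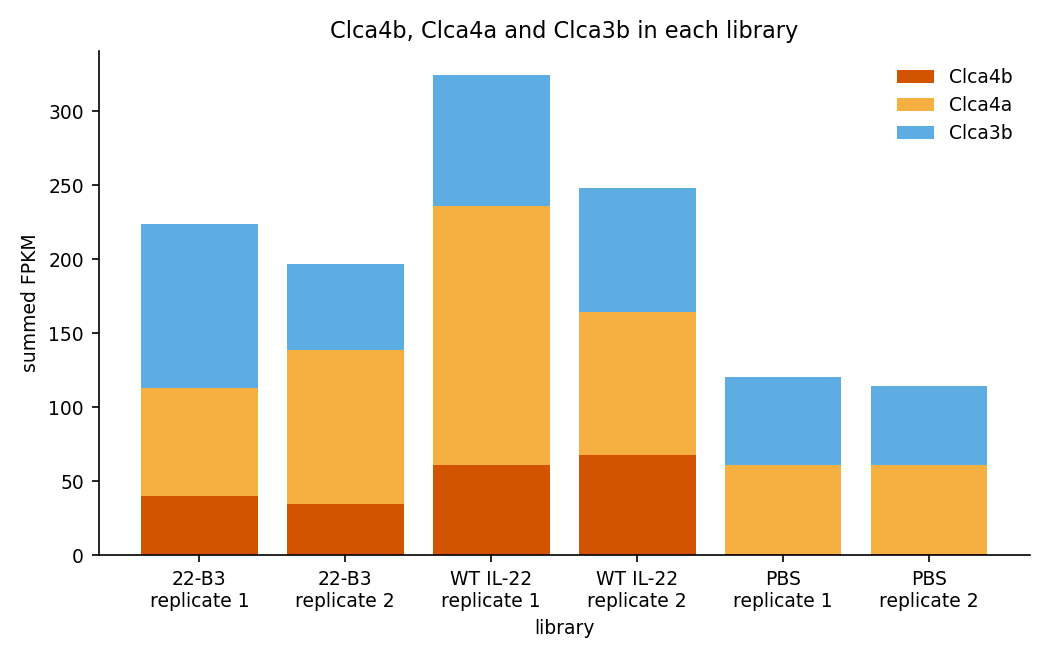
Summed FPKM of Clca4b, Clca4a and Clca3b in each library, stacked from the bottom in that order. Clca4b is a visible block in the 4 treated libraries and too thin to see in the PBS libraries.

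Without Clca1, the family's summed level was 226 and 198 FPKM with 22-B3, 326 and 249 FPKM with WT IL-22, and 123 and 116 FPKM with PBS. Clca4b, Clca4a and Clca3b made up nearly all of these sums. The groups did not overlap in this sum, and each library's sum is the total of uneven parts. It holds Clca4b, whose level against PBS chose the family, so its distance from PBS is a description. In library 1 of 22-B3 the largest part was Clca3b, in library 2 it was Clca4a.

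In counts scaled for library size, Clca4b had 118 and 109 CPM with 22-B3, 176 and 198 CPM with WT IL-22, and 2.16 and 2.03 CPM with PBS. The counts behind them were 2099 and 1966 with 22-B3, 3775 and 4469 in the WT IL-22 libraries, and 42 and 39 with PBS. The mean with 22-B3 was 114 ± 5.85 CPM (SD), against 2.09 ± 0.0903 CPM with PBS, a fitted log2 change of 5.76 with a 95% interval of 5.35 to 6.17. With WT IL-22 the mean was 187 ± 15.7 CPM and the log2 change against PBS was 6.48, with an interval of 6.06 to 6.90. As folds these were 54.1 and 89.3. Among the 15628 genes tested, Clca4b ranked 9 from the top by log2 change with 22-B3 and 10 with WT IL-22.

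Clca4b stood lower with 22-B3 than with WT IL-22, by a log2 difference of -0.72 (SE 0.136, 95% interval -1.03 to -0.41), or 0.606-fold. The edgeR adjusted p over all genes was 0.121, so the difference did not pass. The 22-B3 libraries held 62.8% and 58.4% of the WT IL-22 mean. The call depended on the fit, as the difference passed in 4 of 16 alternative fits, among them DESeq2 (adjusted p 0.0044) and edgeR without library 1 of 22-B3 (adjusted p 0.0247). Over the 16 the log2 difference ranged from -0.81 to -0.64 and the adjusted p went up to 0.478.

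Clca4a, the near-identical neighbour of Clca4b known from enterocytes, had 213 and 331 CPM with 22-B3, 509 and 286 CPM with WT IL-22, and 181 and 185 CPM with PBS. The PBS libraries were the lowest, and the 22-B3 and WT IL-22 libraries overlapped. It was higher with WT IL-22 than with PBS, with a log2 change of 1.12, an SE of 0.288 and an edgeR adjusted p of 0.0336. That call was lost without library 1 of WT IL-22, where the log2 change was 0.62 (edgeR adjusted p 0.237). It was lost too when the PBS libraries were summed (edgeR adjusted p 0.203) or either was left out (0.199 and 0.202). With 22-B3 the log2 change against PBS was 0.57 (SE 0.286, 95% interval -0.08 to 1.22, edgeR adjusted p 0.323) and did not pass. The difference of 22-B3 from WT IL-22 was -0.55 (SE 0.286, 95% interval -1.20 to 0.10, edgeR adjusted p 0.562).

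A sum over Clca4a and Clca4b does not depend on how reads were split between them. It would still miss reads dropped for fitting several genes or given to the pseudogene Clca4c-ps. It was 331 and 440 CPM with 22-B3, 685 and 484 CPM with WT IL-22, and 183 and 187 CPM with PBS. The groups did not overlap. Relative to PBS, the mean sum was 2.08 times as high with 22-B3 and 3.16 times with WT IL-22, and with 22-B3 it was 0.659 of that with WT IL-22. The sum holds Clca4b, whose level against PBS chose the family, so its distance from PBS is a description. The mean of Clca4a alone was 1.49 times its PBS level with 22-B3 and 2.17 times with WT IL-22.

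Clca3b, first described from mouse smooth muscle, had 364 and 206 CPM with 22-B3, 289 and 275 CPM with WT IL-22, and 196 and 184 CPM with PBS. All treated libraries lay above the PBS libraries, library 2 of 22-B3 only slightly. The log2 change against PBS was 0.58 with 22-B3 (SE 0.241, edgeR adjusted p 0.25) and 0.57 with WT IL-22 (SE 0.240, edgeR adjusted p 0.131), and neither passed. With 22-B3 it was 0.94 without library 2 (edgeR adjusted p 0.0061) and 0.09 without library 1 (edgeR adjusted p 0.783), so 1 library decided the value. With WT IL-22 it passed in 4 of 16 alternative fits, among them the fit of only these groups (edgeR adjusted p 0.00445). Between 22-B3 and WT IL-22 the log2 difference was 0.02 (95% interval -0.53 to 0.56). Markers of smooth muscle summed to 11168 and 13955 CPM with 22-B3, 8080 and 11339 CPM with WT IL-22, and 16080 and 16220 CPM with PBS. They thus lay below PBS where Clca3b lay above it, and none of the 12 markers was at 0 in any library. Of these markers, 6 were called lower with WT IL-22, and 0 once the PBS libraries were summed, or without either of them or library 1 of WT IL-22. Of all tested genes, 6.74% were called lower with WT IL-22 against PBS. The part of tissue composition in the Clca3b level was not tested.

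Clca1 had 5444 and 2975 CPM with 22-B3, 4269 and 6590 CPM with WT IL-22, and 5497 and 5589 CPM with PBS. The treated pairs differed within themselves by 1.83 and 1.54 times, the PBS pair by 1.02 times. The log2 change against PBS was -0.40 with 22-B3 (95% interval -1.12 to 0.33, edgeR adjusted p 0.524) and -0.03 with WT IL-22 (95% interval -0.76 to 0.70, edgeR adjusted p 0.959). The difference of 22-B3 from WT IL-22 was -0.37 (95% interval -1.09 to 0.36, edgeR adjusted p 0.726). The intervals leave room for a change of more than 1.5 times in either direction with WT IL-22.

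Clca2, which in human skin belongs to stratified squamous epithelium, had 15 and 11 counts with 22-B3, 13 and 19 in the WT IL-22 libraries, and 34 and 40 with PBS. A count of 11 has an exact Poisson 95% interval of 5.49 to 19.7, and one of 40 of 28.6 to 54.5, which cover counting error only. All treated libraries lay below both PBS libraries. The log2 change was -1.39 in both comparisons with PBS, with an edgeR adjusted p of 0.164 with 22-B3 (SE 0.434) and 0.0555 with WT IL-22 (SE 0.424). Neither passed, though the WT IL-22 value did in 6 of 15 alternative fits. Its level in library 2 of 22-B3, 0.612 CPM, stood beside the highest sum of squamous markers, 61.7 CPM. In library 1 of WT IL-22 it was 0.607 CPM, beside a sum of 12.5 CPM. The part of squamous cells in the Clca2 level was not tested.

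Clca3a1 and Clca3a2, known in mouse from lymphatic endothelium and from mammary gland, had low counts. Clca3a1 had 56 and 59 counts with 22-B3, 59 and 52 in the WT IL-22 libraries, and 88 and 51 with PBS. Clca3a2 had 47 and 22 counts with 22-B3, 30 and 31 in the WT IL-22 libraries, and 72 and 42 with PBS. Neither passed in any comparison. The log2 change of Clca3a2 against PBS was -0.61 with 22-B3 (SE 0.436, edgeR adjusted p 0.478) and -1.08 for WT IL-22 (SE 0.441, edgeR adjusted p 0.119). That of Clca3a1 was -0.16 with 22-B3 (edgeR adjusted p 0.819) and -0.50 for WT IL-22 (edgeR adjusted p 0.3). Markers of lymphatic and blood endothelium summed to 327 and 343 CPM with 22-B3, 325 and 331 CPM with WT IL-22, and 367 and 346 CPM with PBS, and none of the 12 was at 0. Of them, Kdr was called higher (0.72, edgeR adjusted p 0.0201), Flt4 higher (0.56, 0.042) and the lymphatic chemokine gene Ccl21a lower (-0.79, 0.0188) on the log2 scale with WT IL-22 against PBS. In that comparison 9.90% of all genes were called higher and 6.74% lower. These 3 calls were lost with the PBS libraries summed and without any 1 of the PBS or WT IL-22 libraries. Clca3b, which shares the marked stretch with Clca3a2, was 57.8 to 224 times as abundant in FPKM.

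**Figure D4:**
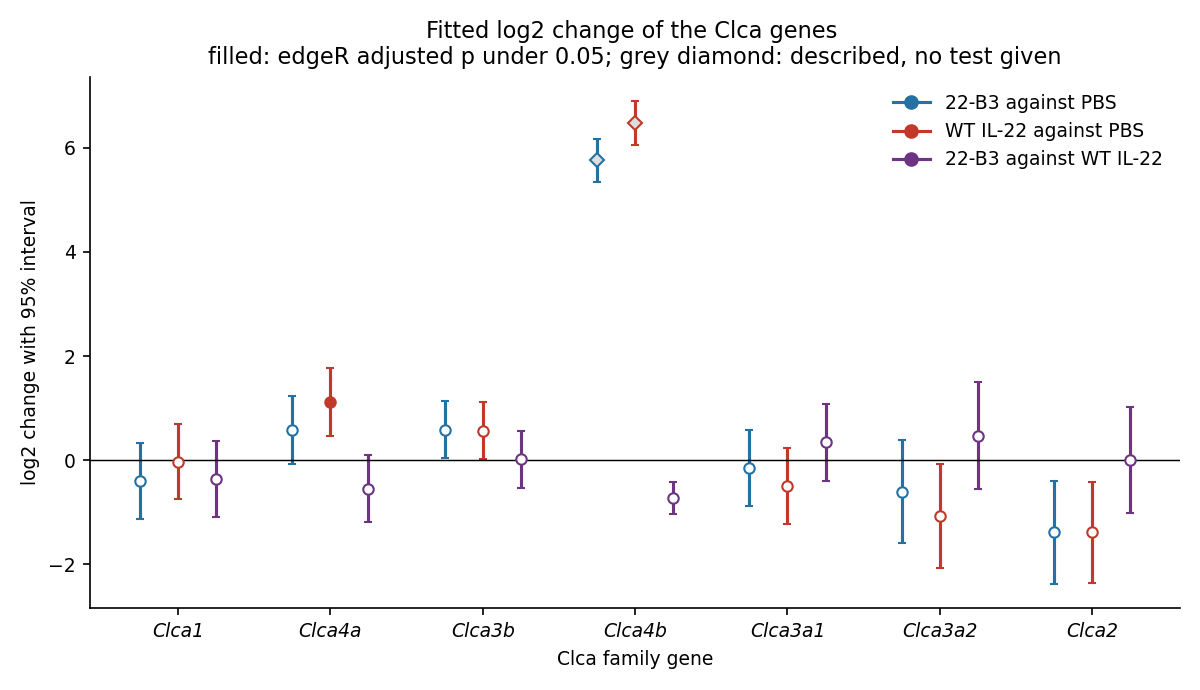
Fitted log2 change of each Clca gene with its 95% interval for 22-B3 (blue) and WT IL-22 (red) against PBS and for 22-B3 relative to WT IL-22 (purple). Filled circles passed at an edgeR adjusted p under 0.05, and grey diamonds mark Clca4b against PBS, whose values are a description. Away from Clca4b the filled circle is that of Clca4a with WT IL-22, at 1.12.

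Leaving Clca4b aside, 0 of the 6 other members passed against PBS with 22-B3 by edgeR, 0 of the 5 with an adjusted p passed by DESeq2, and 2 had an unadjusted p under 0.05. Of all tested genes, 0.947% were called higher, 0.154% lower and 1.10% in either direction. With WT IL-22 against PBS, 1 of the 6 was called higher (Clca4a) and 0 lower, where 9.90% of all genes were called higher, 6.74% lower and 16.6% in either direction. In that comparison 4 of the 6 had an unadjusted p under 0.05, and 1 of the 5 with an adjusted p passed by DESeq2. Between 22-B3 and WT IL-22, 0 of all 7 members passed by edgeR, 1 had an unadjusted p under 0.05 and 1 passed by DESeq2, both Clca4b, where 0.0320% of all genes were called higher, 0.0704% lower and 0.102% in either direction. Over all 7, Clca4b included, 3 members lay wholly above PBS with 22-B3 and 2 wholly below, as did 27.7% and 25.5% of all genes. With WT IL-22 against PBS the numbers were 3 and 2, as for 34.2% and 35.3% of all genes. Relative to WT IL-22, 1 member with 22-B3 lay wholly above (Clca3a1) and 1 wholly below (Clca4b), as did 17.6% and 17.3% of all genes. The median log2 change against PBS over the 6 members other than Clca4b was -0.28 with 22-B3 and -0.27 with WT IL-22. Over all genes tested it was 0.01 and -0.01. With Clca4b counted, the median over the 7 members was -0.16 with 22-B3 and -0.03 with WT IL-22. The comparisons with PBS share the PBS libraries.

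**Figure D5:**
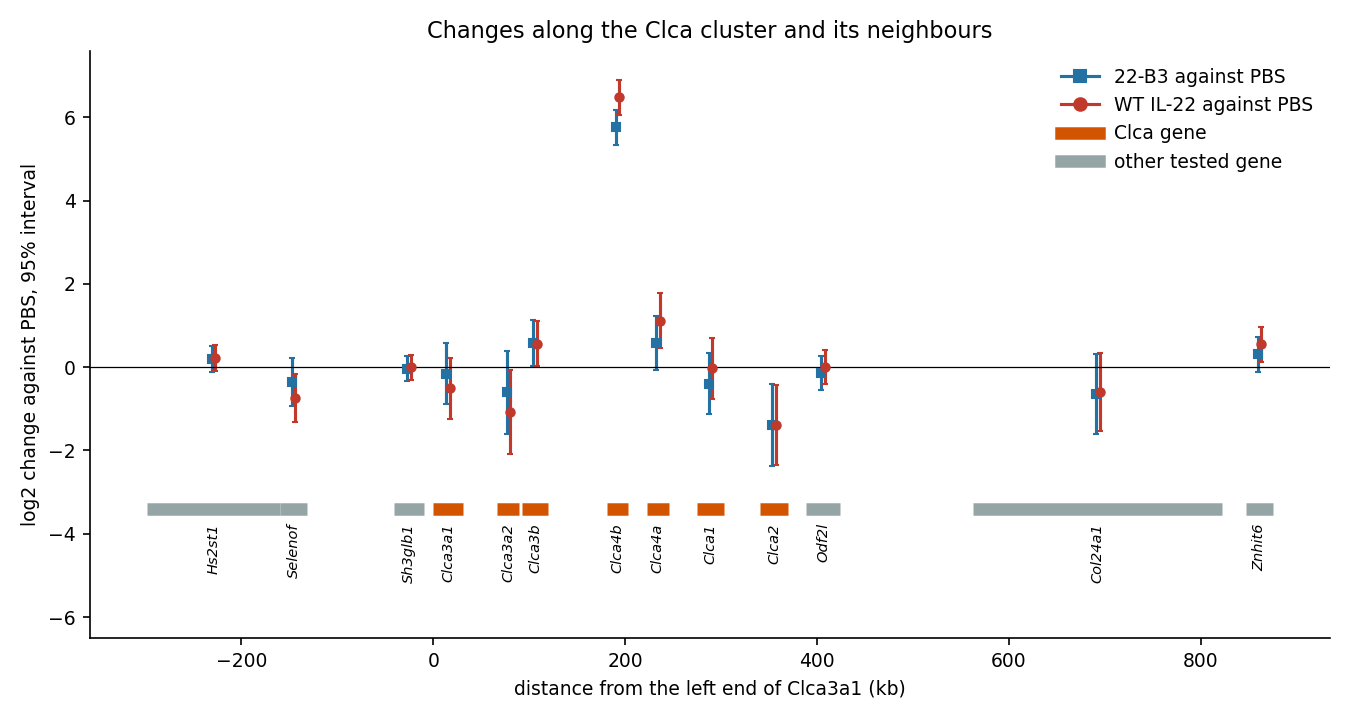
Fitted log2 change against PBS with its 95% interval for the 7 Clca genes and 6 tested neighbours, at their distance in kb from the left end of Clca3a1. The neighbours lie between -0.74 and 0.55, and Clca4b stands at 5.76 with 22-B3 and 6.48 with WT IL-22.

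The genes beside the cluster gave no call. Within 500 kb of its ends or inside it lay 9 other genes of the table, of which 6 passed the filter. Their log2 changes against PBS ranged from -0.65 to 0.31 with 22-B3 and from -0.74 to 0.55 with WT IL-22. By edgeR 0 of 6 passed in each comparison with PBS, where 1.10% of all genes did with 22-B3 and 16.6% with WT IL-22. With 22-B3, 0 had an unadjusted p under 0.05, and with WT IL-22, 2 had one and DESeq2 called 1 of them lower. The genes Gm16215 and Gm16233 overlap Clca3b and Clca4a on the opposite strand, with at most 2 and 8 counts in a library. The sources used here do not give the strand setting of the counting.

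The other genes of chloride secretion were counted from a list of 18. Ano1, the calcium-activated chloride channel, had 209 and 139 CPM with 22-B3, 154 and 148 CPM with WT IL-22, and 144 and 137 CPM with PBS, with log2 changes against PBS of 0.31 (edgeR adjusted p 0.418) and 0.11 (0.730). Cftr, the cAMP-regulated chloride channel, had 107 and 97.5 CPM with 22-B3, 111 and 82.2 CPM with WT IL-22, and 90.9 and 90.8 CPM with PBS, with log2 changes of 0.17 (edgeR adjusted p 0.608) and 0.09 (0.745). Upper-quartile scaling turned the sign of both genes' values with WT IL-22. Of the list, 4 rose and 1 fell with WT IL-22, where 9.90% and 6.74% of all genes did, and the list's median log2 change was 0.24, beside -0.01 over all genes.

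With WT IL-22, Prkg2, a cGMP-dependent kinase, was higher by 1.70 (edgeR adjusted p 0.00664). Gucy2c, the guanylate cyclase receptor of guanylin, was higher by 1.49 (edgeR adjusted p 0.0067), and Kcnq1, a basolateral potassium channel, by 0.89 (edgeR adjusted p 0.0201), all on the log2 scale. Best2, a goblet cell bestrophin channel, fell by 1.47 (edgeR adjusted p 0.00356). With 22-B3, 0 of 18 passed by edgeR, 6 had an unadjusted p under 0.05 and DESeq2 called 2 higher. With the PBS libraries summed, 0 genes of the list were called higher in either comparison, and 1 was called lower with WT IL-22. Without library 1 of WT IL-22 its calls were 1 higher and 1 lower, and without library 2 of 22-B3 those of 22-B3 were 4 and 2.

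Among 16 other goblet cell genes, which mark the cells that make Clca1, 0 rose and 3 fell with WT IL-22, where 9.90% and 6.74% of all genes did. The 3 became 1 without library 1 of WT IL-22, 0 without either PBS library, 7 without either 22-B3 library and 5 by DESeq2. Tff3, a trefoil peptide of mucus, fell by 1.31 (edgeR adjusted p 0.00613), Bcas1 by 0.87 (0.00613) and Spink4 by 0.97 (0.0246) on the log2 scale. With 22-B3, DESeq2 called 3 genes lower and edgeR 1, Bcas1, with a log2 change of -0.72 (edgeR adjusted p 0.0492), a call lost without any 1 of the PBS or WT IL-22 libraries. Muc2, the main gel-forming mucin, had 470 and 519 CPM with 22-B3, 1028 and 617 CPM with WT IL-22, and 688 and 684 CPM with PBS, and did not pass against PBS (log2 -0.47 with edgeR adjusted p 0.323 for 22-B3, and 0.26 with 0.458 for WT IL-22). The summed goblet markers were 7958 and 10172 CPM with 22-B3, 8709 and 9293 CPM with WT IL-22, and 12136 and 12441 CPM with PBS. In the 22-B3 pair, library 2 had the lower Clca1 and the higher sum, while in the WT IL-22 pair library 2 was higher in both. Zg16 weighed heavily in the sum, at 2215 and 4137 CPM with 22-B3 and 2455 and 3051 CPM with WT IL-22. The mean log2 difference from PBS weighs the markers alike. It was -0.41 and -0.14 with 22-B3, and -0.26 and -0.32 with WT IL-22, so there library 2 of WT IL-22 was the lower.

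Among 15 surface colonocyte genes, which mark the absorptive cells, 3 rose and 2 fell with WT IL-22, where 9.90% and 6.74% of all genes did. Without either PBS library none was called, without library 1 of WT IL-22 the numbers were 0 and 1, without its library 2 they were 1 and 0, and without either 22-B3 library 4 and 5. With 22-B3, 0 passed, 6 had an unadjusted p under 0.05, DESeq2 called 1 higher and 1 lower, and 3 and 3 were called without its library 2. Ceacam20 was higher with WT IL-22 by 1.31 (edgeR adjusted p 0.0112) and Cdh17, an intestinal cadherin, by 0.68 (0.0247). The phosphate transporter gene Slc20a1 fell by 1.27 (edgeR adjusted p 0.0152), and the carbonic anhydrase gene Car1 fell by 0.91 (edgeR adjusted p 0.0267), all on the log2 scale. The list's summed level was 14573 and 15695 CPM with 22-B3, 14647 and 13502 CPM with WT IL-22, and 14405 and 14545 CPM with PBS. Of these sums Krt8, also listed as a pan-epithelial gene, gave 5721 and 6255 CPM with 22-B3. It gave 5270 and 5656 CPM with WT IL-22, and 5057 and 5327 CPM with PBS. The sums also hide members that moved in opposite directions, as given above. Clca4b was 54.1 and 89.3 times its PBS level with 22-B3 and WT IL-22. With the PBS libraries summed, 1 library stands for that group, and the calls of the goblet and colonocyte lists were lost. Few genes of the whole table were called in that fit with 22-B3, but most of the lost list calls were with WT IL-22. What the loss means for these lists was not tested. The part of cell composition in the Clca4b level was not tested.

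Of 18 genes on a list for the IL-22 and STAT3 response, 5 rose and 0 fell with 22-B3, and 13 rose and 0 fell with WT IL-22, where 0.947% and 9.90% of all genes were called higher. The list also holds the receptor genes Il22ra1 and Il10rb, and neither passed. The counts depended on the fit, at 13 with 22-B3 and 14 with WT IL-22 by DESeq2, and at 1 and 7 with the PBS libraries summed or either left out. With 22-B3 the count was 7 without its library 1 and 10 without its library 2. Socs3, the feedback inhibitor of STAT3, had 25.3 and 32.0 CPM with 22-B3, 247 and 253 CPM with WT IL-22, and 7.80 and 7.07 CPM with PBS. Lbp, the lipopolysaccharide-binding protein, averaged 39.8 ± 2.08 CPM with 22-B3, 45.5 ± 8.17 CPM with WT IL-22 and 6.12 ± 0.345 CPM with PBS. Between 22-B3 and WT IL-22 the log2 difference was -3.13 for Socs3 (edgeR adjusted p 0.000327), -1.59 for the fucosyltransferase gene Fut2 (0.0230), and -0.19 for Lbp (0.726), beside -0.72 for Clca4b. Whether Clca4b differed from these genes in this respect was not tested.

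Over the 6 libraries, the genes whose log2 CPM followed Clca4b most closely, of 14112 compared, were Mcm5, a subunit of the replicative helicase (Pearson r 0.999), Eif4h, a translation initiation factor (0.998), R3hdm4 (0.997), Prc1, a regulator of the mitotic spindle midzone (0.997), and Rps6ka1, a kinase of the ERK pathway (0.997). Mcm5 had 123 and 119 CPM with 22-B3, 147 and 155 CPM with WT IL-22, and 40.3 and 41.3 CPM with PBS. Eif4h moved far less in size, with 401 and 400.4 CPM with 22-B3, 408 and 417 CPM with WT IL-22, and 320 and 325 CPM with PBS. These 6 points fall into the 3 groups, so r mostly orders group means and is a description. Of the family, r with Clca4b was 0.741 for Clca4a, 0.739 for Clca3b, -0.266 for Clca1, -0.493 for Clca3a1, -0.708 for Clca3a2 and -0.958 for Clca2.

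The genes most like Clca1, the most abundant member, were Musk (r 0.998), Abi3bp (0.992) and Ccr10 (0.992). Abi3bp, a matrix protein gene, had 22.5 and 15.1 CPM with 22-B3, 19.6 and 25.3 CPM with WT IL-22, and 23.3 and 24.2 CPM with PBS, the same order of libraries within each treated pair as Clca1. Musk and Ccr10 were low, at 1.78 to 3.86 CPM and 1.17 to 2.84 CPM, where counting error is large.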

How the data were processed

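Colon RNA was sequenced in 6 libraries, 2 each for 22-B3, WT IL-22 and PBS. Reads were aligned with STAR 2.5 to mm10, per the submitters' processing notes. The sources used here do not give the counter, annotation release, strand setting or read length. The deposited count table holds raw whole-number read counts for 35275 genes, per the file headers. The FPKM values were made by the authors from those counts, the gene length and the column total (largest relative deviation 5e-12).

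Genes were filtered with filterByExpr (15628 kept), scaled by TMM and fitted over all 6 libraries with edgeR 4.0.16 in R 4.3.3, by the quasi-likelihood test with Benjamini-Hochberg adjustment over all tested genes. The threshold was an adjusted p of 0.05. CPM values are TMM-scaled, standard errors come from the log2 change and its F statistic, and the fit was tested on simulated data. Alternatives were DESeq2 1.42.0, limma 3.58.1 (voom, and log2 FPKM plus 0.1 or 1), other scalings, no filter, only the groups compared, a replicate block, PBS summed and each library left out. The DESeq2 runs used the counts as deposited.

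Current symbols came from the Ensembl IDs (34490 of 35275 matched). Coordinates are as deposited. Of the matched genes, 99.81% overlapped the GENCODE M21 gene (GRCm38, the assembly of mm10) on the same strand and 72.23% had the same start and end. Coding sequences and transcripts were taken from that release, and promoters from RefSeq. The text names all members whatever their values, Ano1, Cftr, Muc2 and Socs3, at most 4 genes per list that passed, by smallest adjusted p, with Lbp and Fut2 also given where they did not pass, the genes most like Clca4b (5) and Clca1 (3), and neighbours within 500 kb. The members and the lists were chosen with earlier results of these data known. Counts of list genes are therefore descriptions, with no test of a list. The precision of each value is set by 2 libraries per group, and by 17428528 to 22081904 counts per library.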

Additional observations from a re-analysis of the deposited data

How the results depend on the processing

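Over the 16 alternative fits the log2 change of Clca4b against PBS was 4.50 to 5.81 for 22-B3 and 5.26 to 6.53 for WT IL-22. Its level against PBS chose the family, so these ranges describe the fits and do not test the change. Of the 6 other members, 1 passed with WT IL-22 against PBS (Clca4a) and 0 with 22-B3 against PBS. With WT IL-22, Clca4a passed in 11 of 16 alternative fits, Clca3b in 4 of 16 and Clca2 in 6 of 15. With 22-B3, Clca3b passed in 1 of 16, and no other member besides Clca4b passed in any. For 22-B3 against WT IL-22, 0 of all 7 members passed. Clca4b did with no filter on low counts, with DESeq2 or with the replicate block. Deviations of replicate 1 from its group mean were correlated between groups over 15628 genes. The r was 0.290 for 22-B3 with WT IL-22, 0.0488 for 22-B3 with PBS and 0.0620 for WT IL-22 with PBS. These values do not settle whether the replicate numbers pair the libraries. With the replicate block, members besides Clca4b passed with WT IL-22 against PBS, and none did with 22-B3 against PBS. These counts of members stand beside totals over all genes that also moved widely between fits, as given below.

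Signs turned for some small values, and no value with a turned sign passed. With 1 library left out, WT IL-22 against PBS ranged over -0.40 to 0.22 for Clca1, -0.17 to 0.26 for Cftr and -0.18 to 0.56 for Muc2, and 22-B3 against PBS over -0.49 to 0.28 for Clca3a1 and -0.047 to 0.58 for Ano1. For 22-B3 against WT IL-22 the ranges were -0.18 to 0.92 for Clca3a2, -0.45 to 0.37 for Clca3b, -0.87 to 0.0037 for Clca1, -0.25 to 0.25 for Clca2, -0.12 to 0.31 for Cftr, -0.13 to 0.47 for Ano1, -0.52 to 0.019 for Kcnq1, -0.63 to 0.010 for Ceacam20 and -0.42 to 0.025 for Cdh1. Upper-quartile scaling gave Cftr -0.033 and Ano1 -0.010 with WT IL-22 against PBS, and moved the median of all genes to -0.13 there and to -0.10 with 22-B3. For 22-B3 against WT IL-22, Clca3b was -0.040 with voom, -0.10 on log2 FPKM with either added constant and -0.025 with the replicate block, and Clca2 was 0.0034 with upper-quartile scaling, 0.0086 with voom and 0.010 with the block. The cause of these turns was not tested.

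Over all genes, calls with WT IL-22 against PBS ranged from 117 to 2782 higher and 28 to 2454 lower (main 1547 and 1054), with 22-B3 against PBS from 2 to 1391 and 3 to 858 (main 148 and 24), and for 22-B3 against WT IL-22 from 2 to 435 and 2 to 201 (main 5 and 11). The fewest calls came with the PBS libraries summed for 22-B3 against PBS, and without library 2 of PBS for WT IL-22 against PBS. The most in each comparison came with a 22-B3 library left out. Counts of members and of list genes in an alternative fit are to be read beside these shifts over all genes. Depth limits Clca2, Clca3a1 and Clca3a2, which had 11 to 88 counts per library.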
